A study of Arabidopsis thaliana with 4 samples.

Results

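IGN29 is an intergenic stretch of Arabidopsis thaliana chromosome 2 that is transcribed into noncoding RNA by RNA polymerase V (Pol V). It starts just outside DML1, better known as ROS1 (AT2G36490), a DNA demethylase gene transcribed away from it. Its reads were taken by locus name: 18555 of 141489 reads in Col-0, 14880 of 109895 in rrp6L1-1, 9140 of 89304 in rrp6L1-2 and 3 of 248940 in nrpe1-11, or 42578 of 589628 in all. The study used 3′ RACE, which adds a poly(A) tail to RNA and amplifies from a locus primer to the tail. Each read thus records an RNA end, and several reads can be copies of 1 RNA. It asked whether Pol V transcripts end elsewhere when the exonuclease gene RRP6L1 is mutated.

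All 4 genotypes share the Col-0 ecotype and were sampled as above-ground tissue of plants aged 2.5 weeks, grown with 16 hours of light and 8 hours of dark. Wild-type plants were Col-0. In nrpe1-11 the largest subunit of Pol V is mutated, and this library was the control for transcripts that need Pol V. The rrp6L1-1 and rrp6L1-2 plants carry independent mutations of RRP6L1. The labels name no transgene. There was 1 library per genotype, so no value below has a replicate error and no difference was tested. The intervals are exact 95% intervals for shares and order-statistic intervals for medians. They cover the counting error of reads only, each read taken as an independent draw. Reads amplified by nested PCR are not independent molecules, so the intervals can be too narrow for counts of RNA molecules. The rrp6L1 alleles were both set against the same Col-0 library, and their difference from each other is the only guide to how far libraries vary. That guide is imperfect, because the alleles are different genotypes and their difference can include an effect of the allele.

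Pol V makes noncoding transcripts from which RNA-directed DNA methylation is guided: small RNAs held by an Argonaute protein pair with them, and a DNA methyltransferase is brought to the locus. RRP6 proteins are 3′-to-5′ exonucleases known from yeast and animals as partners of the RNA exosome, and RRP6L1 is a plant relative. DML1/ROS1 removes methylated cytosines from DNA. Its own expression is known to depend on methylation of its promoter region, where methylation favours transcription.

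The lengths deposited for IGN29 count from position 15314845 of chromosome 2 (TAIR10, with sequence and genes read from NCBI's TAIR10.1) towards higher coordinates, on the plus strand. Length 1 is not taken here as the 5′ end of the RNA, which this assay does not read. The deposited strand column holds a single value at IGN29, the minus sign, which is opposite to the direction in which the lengths grow. The farthest end lay at 265 nt, at position 15315109. No annotated feature of TAIR10.1 overlaps 15314845 to 15315109. DML1 runs on the minus strand from 15314807 down to 15307907, so that length 1 lies 38 nt from its 5′ end. Its first exon, 15314598 to 15314807, is noncoding, since the coding sequence begins at 15314272. The next gene on the other side, AT2G36500, lies on the plus strand and starts at 15317873, 2764 nt past the farthest end.

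The first 110 nt of the reference are shown because most of the ends fall there. Capitals mark 8 bases: the 7 positions that held at least 5% of the ends in 1 of the 3 libraries compared, and the 1 further position that was at least 2 times as frequent as in Col-0 in both alleles. The 37 nt that separate IGN29 from DML1 are given on the same strand.
IGN29, chr2:15314845-15314954, plus strand: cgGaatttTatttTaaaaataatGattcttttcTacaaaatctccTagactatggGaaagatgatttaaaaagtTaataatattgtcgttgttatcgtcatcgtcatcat
DML1 start to IGN29, chr2:15314808-15314844, plus strand: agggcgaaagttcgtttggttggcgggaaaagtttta

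The capitals stand at 3, 9, 14, 24, 34, 46, 56 and 75 nt, and each is followed by an A. Over the full 265 nt the sequence is 79.2% A and T. Its cytosines, the bases that methylation can mark, number 16 in CG, 3 in CHG and 36 in CHH context over both strands (H stands for A, C or T). DNA methylation was not analysed here.

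**Figure D1:**
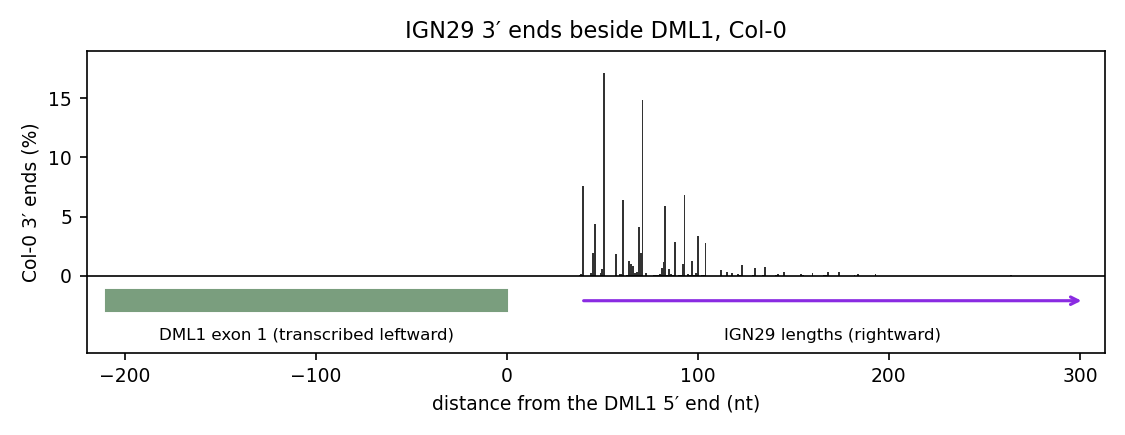
Share of the Col-0 3′ ends of IGN29 (y axis, %) at each distance from the 5′ end of DML1 (x axis, nt; 0 is the DML1 start). The green box is DML1 exon 1, transcribed leftward, and the arrow is the 265 nt span of IGN29; 90.9% of the ends lie within 100 nt of the DML1 start.

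The Pol V mutant gave almost no IGN29 reads. The nrpe1-11 library, the deepest of the 4, held 3 of them, 0.00121% of its total (exact interval 0.000249% to 0.00352%). The locus made up 13.1% of the Col-0 reads (12.9% to 13.3%), 13.5% of the rrp6L1-1 reads (13.3% to 13.7%) and 10.2% of the rrp6L1-2 reads (10.04% to 10.4%). Because PCR products were pooled, such shares do not measure RNA amount. Products of another locus, IGN23, took up 99.99% of the nrpe1-11 reads, and their part in the low IGN29 count was not tested. With 3 reads, no end profile of nrpe1-11 can be described.

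In wild-type plants the recorded IGN29 ends lay at a few sharp positions close to DML1. All lengths count from 1 position, 38 nt from the DML1 start, so no end nearer to DML1 could be recorded. How far amplification favoured short lengths was not tested. Of 18555 Col-0 ends, 17.2% lay at 14 nt (position 15314858) and 14.9% at 34 nt (15314878). Ends at 3 nt (15314847) made up 7.60%, those at 56 nt (15314900) 6.81%, those at 24 nt (15314868) 6.41% and those at 46 nt (15314890) 5.92%. Although 124 positions carried at least 1 end, 5 of them held over 50% of the ends. Ends within 100 nt of the DML1 start, which is up to 63 nt of length, made up 90.9% (90.5% to 91.4%). The profile was as concentrated in the mutants: 5 positions again held over 50% of the ends in each. Together the 7 positions of at least 5% accounted for 63.1% of ends in wild type, for 60.1% in rrp6L1-1 and for 61.7% in rrp6L1-2.

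**Figure D2:**
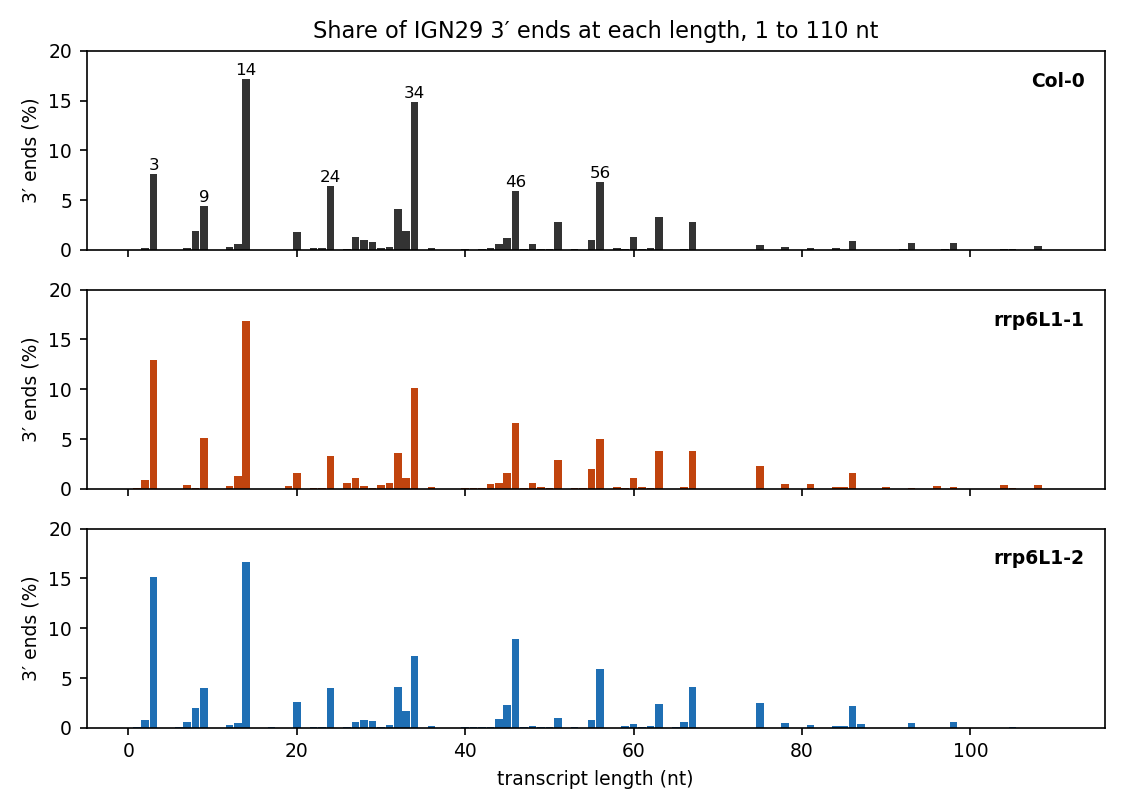
Share of IGN29 3′ ends (y axis, %) at each transcript length from 1 to 110 nt (x axis) in Col-0, rrp6L1-1 and rrp6L1-2, 1 library each. Numbers over the Col-0 bars give the lengths of the 7 positions with at least 5% in a library; the bar at 14 nt is the tallest in all 3 panels, at 17.2%, 16.9% and 16.6%.

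The sharp positions sat in front of A bases. Of the ends up to 100 nt, 79.7% for Col-0 (79.1% to 80.2%), 79.3% for rrp6L1-1 and 77.3% for rrp6L1-2 lay on a base other than A with an A next. Only 19 of the first 100 reference positions are of that kind. All 7 of the positions of at least 5% were among them. Ends on an A itself were rare, with 0.956% for Col-0, 1.27% for rrp6L1-1 and 0.898% for rrp6L1-2, although 36 of the 100 bases are A. These shares rest on reading the deposited coordinates as 1-based, which was chosen because ends then avoid A. Neither the rarity of ends on A nor the share of ends before an A is therefore an independent observation. If a poly(A) tail is trimmed from a read, genomic A bases next to it can be removed too, and an end inside an A run would then be recorded at the base before the run. The trimming settings were not used here, and how the few ends recorded on A arose was not tested. When the A bases are counted with the base before them, 55% of the reference belongs to such sites. The recorded shares of 77.3% to 79.7% were above that, but they too rest on the 1-based reading. How far the tailing, oligo(dT) priming and trimming steps set this pattern was not tested.

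The A runs were not used in proportion to their length. The run of 5 A behind 14 nt was the most frequent end in each library. The other run of 5, behind 67 nt, accounted for 2.81% of ends in wild type and for 3.80% and 4.06% in rrp6L1-1 and rrp6L1-2. The run of 4 A behind 36 nt held only 0.232%, 0.235% and 0.230%, while the single A behind 34 nt, next to it, held 14.9% in Col-0. The 19 sites before an A thus ranged in Col-0 from 0% at 99 nt to 17.2% at 14 nt, and 13 of them reached 1% in at least 1 library.

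In the rrp6L1 mutants the middle of the length distribution lay close to that of the wild type. Wild type had a median length of 33 nt (interval 33 to 33 nt), compared with 33 nt (32 to 33 nt) for rrp6L1-1 and 32 nt (29 to 32 nt) for rrp6L1-2. The median of rrp6L1-1 was thus displaced by 0 nt and that of rrp6L1-2 by -1 nt. Using only reads with the highest mapping score made it -8 nt in rrp6L1-2, and counting each distinct position once made it -10 nt, while rrp6L1-1 gave 0 and -0.5 nt. Leaving out positions before a genomic A turned it to 1 nt in rrp6L1-2, and leaving out the first 10 nt or the tallest peak made it 0 nt. Mean lengths were 35.1, 34.9 and 33.3 nt, with standard deviations over ends of 26.3, 27.8 and 26.7 nt. In all 3 libraries the shortest 25% of ends reached up to 14 nt, the position of the tallest peak.

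The near-equal medians covered differences on either side that both alleles had in common. Ends of 1 to 10 nt were more frequent, with a share of 19.5% for rrp6L1-1 (18.9% to 20.2%), 22.6% for rrp6L1-2 (21.8% to 23.5%) and 14.3% for Col-0 (13.8% to 14.8%). Ends of 21 to 40 nt were less frequent, at 21.7% (20.99% to 22.3%) and 19.96% (19.1% to 20.8%) against 31.7% (31.1% to 32.4%). Both of these differences were larger than the one between the alleles. Ends of 71 to 90 nt were more frequent as well, at 5.59% (5.23% to 5.97%) and 6.24% (5.75% to 6.75%) against 2.13% (1.93% to 2.35%). Ends of 11 to 20 nt, which include the 14 nt peak, were close, with 19.9% for Col-0, 20.3% for rrp6L1-1 and 20.1% for rrp6L1-2. From 41 to 70 nt the shares were 27.8%, 30.03% and 28.7%. These windows were drawn after the profiles had been seen.

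Beyond 90 nt the comparison depended on the limit and on the allele. Ends beyond 90 nt were less frequent in both alleles, with 2.85% for rrp6L1-1 (2.59% to 3.13%), 2.47% for rrp6L1-2 (2.164% to 2.81%) and 4.02% for Col-0 (3.74% to 4.31%). Beyond 100 nt the rrp6L1-1 share of 2.15% (1.92% to 2.40%) overlapped the Col-0 share of 2.43% (2.21% to 2.66%) in its interval, while rrp6L1-2 had 1.30% (1.08% to 1.56%). Beyond 120 nt both alleles were below Col-0 without overlap, at 1.16% (0.990% to 1.34%) and 0.503% (0.369% to 0.671%) against 1.64% (1.47% to 1.84%). Beyond 150 nt there were few ends: 64 in Col-0 (0.345%, 0.266% to 0.440%), 82 in rrp6L1-1 (0.551%, 0.439% to 0.684%) and 36 in rrp6L1-2 (0.394%, 0.276% to 0.545%). The shares of both alleles were there above that of Col-0, with overlapping intervals. All but the longest 1% of ends lay within 131 nt for Col-0, 123 nt for rrp6L1-1 and 113 nt for rrp6L1-2. The farthest single ends lay at 242, 265 and 184 nt. The limit within which 90% of the wild-type ends fell was 63 nt. Past it lay 12.5% of ends for rrp6L1-1, 13.4% for rrp6L1-2 and 9.05% for Col-0, and in the mutants most of these were of 71 to 90 nt or at 67 nt. Their excess over Col-0 was 3.44 and 4.39 percentage points. With the limit set at 75% of the wild-type ends it was 2.99 and 1.40 points. Without positions before a genomic A, the limit was set anew at 90% of the remaining Col-0 ends and lay beyond 63 nt. Past that farther limit the differences from Col-0 were -0.79 and -0.61 points. They do not give the excess past 63 nt, which was not computed for these ends.

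**Figure D3:**
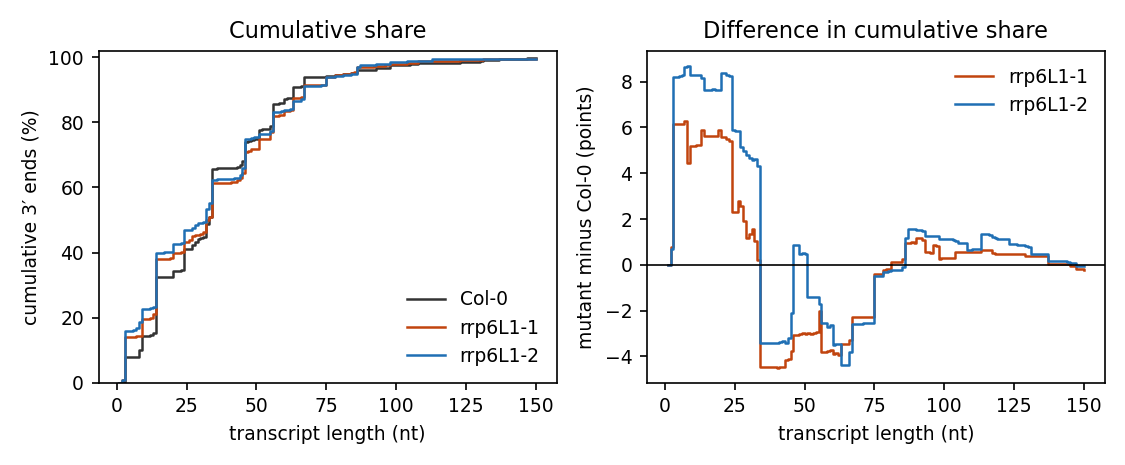
Left, cumulative share of IGN29 3′ ends (y axis, %) up to each length (x axis, nt) in the 3 libraries; right, each mutant minus Col-0 (percentage points). Both mutant curves lie above 0 at short lengths, with maxima of 6.28 points at 7 nt in rrp6L1-1 and 8.69 points at 8 nt in rrp6L1-2, and reach minima of -4.49 points at 40 nt and -4.39 points at 63 nt.

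The short excess came largely from a single position, 3 nt, 40 nt from the DML1 start. It held 1410 of the Col-0 ends (7.60%, interval 7.22% to 7.99%), 1931 in rrp6L1-1 (13.0%, 12.4% to 13.5%) and 1384 in rrp6L1-2 (15.1%, 14.4% to 15.9%). In the alleles this was 1.71 and 1.99 times the Col-0 share, just short of the 2-fold level used for calls. Most of the lower share from 21 to 40 nt lay at 24 and 34 nt. The 24 nt position had 6.41% of the wild-type ends (6.07% to 6.78%), with 3.29% for rrp6L1-1 (3.01% to 3.59%) and 4.03% for rrp6L1-2 (3.63% to 4.45%). The 34 nt position had 14.9% of the wild-type ends (14.4% to 15.4%), with 10.2% for rrp6L1-1 (9.69% to 10.7%) and 7.17% for rrp6L1-2 (6.65% to 7.71%). At both positions the alleles differed by less from each other than from Col-0.

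The position at 75 nt (15314919), 112 nt from the DML1 start, was the 1 called position. It held 88 Col-0 ends (0.474%, 0.381% to 0.584%), 347 in rrp6L1-1 (2.33%, 2.10% to 2.59%) and 229 in rrp6L1-2 (2.51%, 2.19% to 2.85%). The alleles were 4.92 and 5.28 times Col-0 and lay within each other's counting intervals. Positions were called when they held at least 1% of the ends in 1 library and differed from Col-0 by at least 2 times in the same direction in both alleles. At IGN29, 1 of 21 such positions was higher in both alleles and 0 of 21 were lower. Over all 7 loci, 24.4% of 180 positions were higher in both and 21.1% were lower. Since the alleles share Col-0, a Col-0 share that was off by chance would move both ratios together. The counts at IGN29 also depended on the level chosen. At 1.5 times, 3 of 21 positions (3, 75 and 86 nt) were higher and 1 (24 nt) was lower, where all loci gave 27.2% and 25.6%. With a minimum share of 0.5% and 2 times, 4 of 35 positions (2, 66, 75 and 113 nt) were higher and 0 were lower, where all loci gave 24.7% and 22.3%. The 2 nt position, 1 base short of the 3 nt peak, had larger ratios than 75 nt, at 6.33 and 5.56 times Col-0. Its shares were 0.146% in Col-0 (27 ends), 0.921% in rrp6L1-1 (137 ends) and 0.810% in rrp6L1-2 (74 ends), below the 1% minimum.

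The sequence around these 4 ends is given with the end base in capitals, to show the A run that follows each.
End at 3 nt, more frequent in both alleles: cgGaattttattt
End at 14 nt, near-equal in the libraries: attttatttTaaaaataatg
End at 34 nt, less frequent in both alleles: attcttttcTacaaaatctc
End at 75 nt, called higher in both alleles: ttaaaaagtTaataatattg

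The ends at 3 and at 75 nt are each followed by 2 A, the end at 34 nt by 1 A and the end at 14 nt by 5 A. Of the ends up to 100 nt, those before exactly 2 A came to 10.5% for Col-0, 17.7% for rrp6L1-1 and 20.996% for rrp6L1-2, and those before a single A to 41.5%, 35.0% and 29.1%. Ends before 5 A made up 20.5%, 21.2% and 20.9%. The number of A cannot be told apart from the position here, since 3 nt alone held most of the ends before 2 A.

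The remaining positions of at least 5% stayed within 2 times Col-0, in either direction, in both alleles. At 14 nt (17.2%, 16.9% and 16.6%) the counting intervals of the 3 libraries overlapped. At 9 nt the shares were 4.37%, 5.09% and 3.96%, with Col-0 between the alleles. At 46 nt both alleles lay above the Col-0 share of 5.92%, rrp6L1-1 at 6.62% and rrp6L1-2 farther off at 8.87% (8.30% to 9.47%). At 56 nt both alleles lay below the Col-0 share of 6.81%, rrp6L1-2 at 5.95% and rrp6L1-1 at 5.03%.

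**Figure D4:**
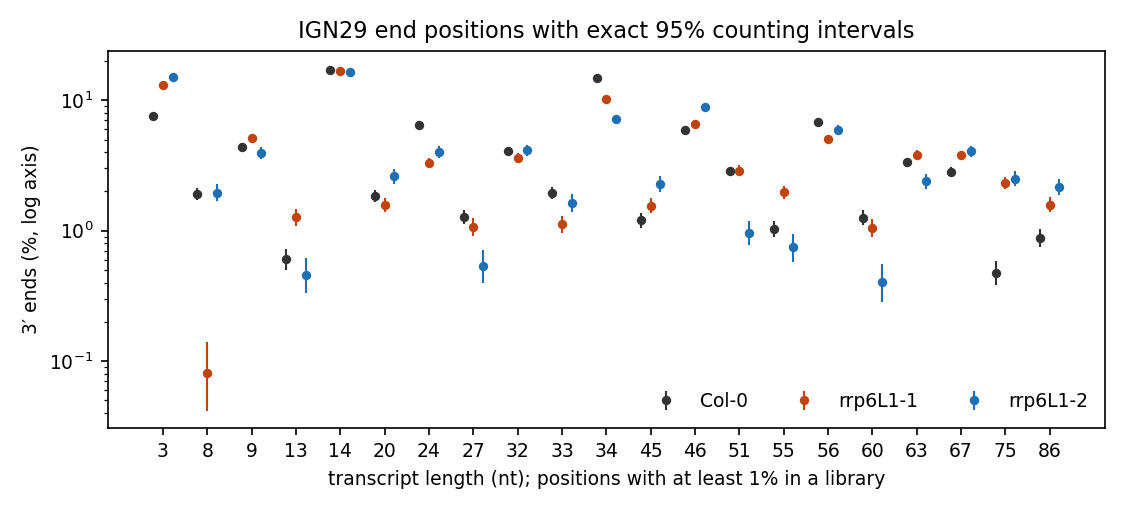
Share of IGN29 3′ ends (y axis, %, log axis) at the 21 positions with at least 1% in a library (x axis, length in nt); points are the 3 libraries and bars exact 95% counting intervals. At 75 nt both alleles lie above Col-0 (2.33% and 2.51% against 0.474%), and at 8 nt rrp6L1-1 lies far below the other libraries (0.0806% against 1.902% and 1.96%).

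At some positions 1 allele passed 2 times and the other did not. The 34 nt position was among them, at 0.482 times the Col-0 share in rrp6L1-2 and 0.683 times in rrp6L1-1. So were 13 nt, passed by rrp6L1-1, and 27 nt, passed by rrp6L1-2. At 8 nt there were 353 ends in Col-0 (1.902%, 1.71% to 2.11%), 12 in rrp6L1-1 (0.0806%, 0.0417% to 0.141%) and 179 in rrp6L1-2 (1.96%, 1.68% to 2.26%). The 8 nt position is 1 base short of the 9 nt peak, and it held 43.6% as many ends as that peak in Col-0, 1.58% as many in rrp6L1-1 and 49.4% as many in rrp6L1-2. The reverse held at 51 nt, where Col-0 had 2.85%, rrp6L1-1 2.88% and rrp6L1-2 0.963%. At 60 nt the shares were 1.26%, 1.06% and 0.405%. At 86 nt Col-0 had 0.884%, rrp6L1-1 1.59% and rrp6L1-2 2.17%, and the rrp6L1-2 share passed 2 times Col-0 while the rrp6L1-1 share did not.

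Counted by pairs of libraries, rrp6L1-1 differed from Col-0 by at least 2 times at 3 of 21 positions, rrp6L1-2 differed from Col-0 at 6, and the alleles differed from each other at 6. By this count neither mutant was farther from Col-0 than from the other mutant. Over all 7 loci the same counts were 127, 128 and 111 of 180 positions, or 70.6%, 71.1% and 61.7%.

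By whole profiles IGN29 was the locus with the most alike libraries. Position by position, 82.1% of the ends were common to Col-0 and rrp6L1-1 (interval 81.0% to 83.1%), 79.0% to Col-0 and rrp6L1-2 (77.8% to 80.2%) and 83.6% to the alleles (82.3% to 84.9%). At the other 6 loci these shares ran from 16.2% to 57.1%, from 4.78% to 61.4% and from 13.2% to 67.5%. The share of positions called in the same direction in both alleles was 4.76% at IGN29 and 33.3% to 80.0% at the other 6. In breadth the IGN29 profile lay among the others: its Col-0 ends were as concentrated as if spread evenly over 12.8 positions, a number that was lower at 4 of the other 6 loci, whose range was 5.46 to 19.5. No replicate library of 1 genotype was sequenced, so how alike repeated libraries would be at these loci was not tested.

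**Figure D5:**
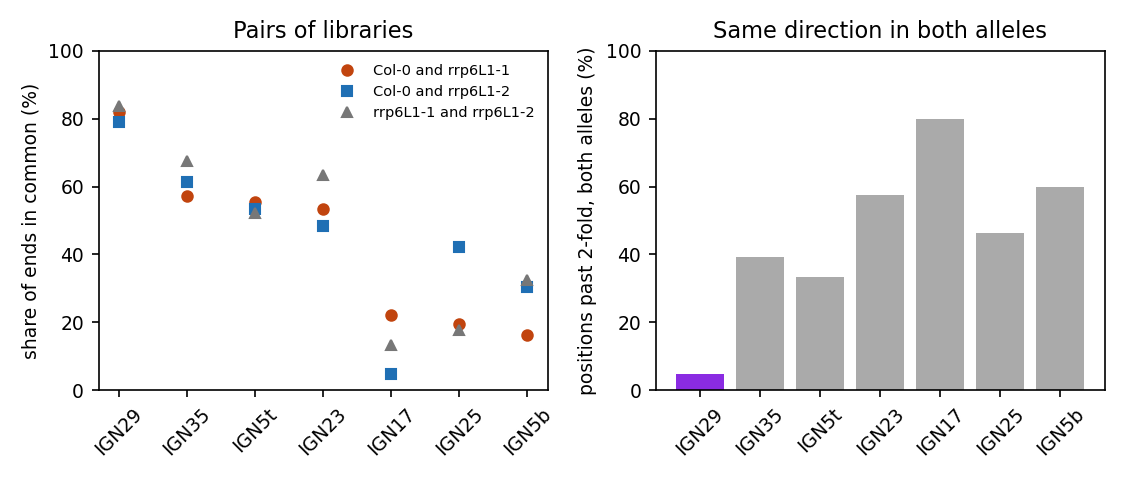
Left, share of 3′ ends in common position by position (y axis, %) for 3 pairs of libraries at each of the 7 loci (x axis); right, share of positions with at least 1% in a library that passed 2-fold against Col-0 in the same direction in both alleles (y axis, %). IGN29 has the highest shares in common, at 79.0% to 83.6%, and the lowest share of called positions, at 4.76%.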

How the data were processed

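Each deposited file was a read list for 1 library, in which a line gives the locus, read name, a mapping quality score, strand, genomic 3′ end coordinate and a length in nt, per the file headers. Tools listed in the submitters' processing notes are cutadapt 1.9.1, bcl2fastq 2.16.0.10, bedtools, SAMtools and Bowtie2, with TAIR10 as the build and no step described. The deposited mapping score at IGN29 was 41 to 44. PCR products of each genotype were pooled before sequencing, per the labels' protocols, and all 4 libraries carried 1 run and lane.

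IGN29 lines were selected by locus name; it held 0 duplicate lines, and libraries shared 0 read names. Duplicate lines at other loci were dropped. Coordinates were read as 1-based: read that way, ends avoid genomic A, as trimming of a tail could leave them. Shares, exact intervals (SciPy 1.17.1) and medians were computed with Python 3.11.15 and pandas 2.3.3. The named positions held at least 5% in a library or were called by the 2-fold rule, over positions with at least 1%. Other positions given values were chosen after these were seen. The call rule was tested on simulated data. The share in common is the sum over positions of the lower of both shares, with a normal 95% interval. The locus, the rules and the alternatives were chosen with earlier results of these data known. RNA amount was not measured.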

Additional observations from a re-analysis of the deposited data

How the results depend on the processing

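No paired analysis was possible because each genotype had 1 library, and no replicate could be left out. Of 68 alternative values, 14 could hardly move: IGN29 held no duplicate lines, and moving each end past the following A run (chosen after seeing the data) keeps the order of the ends. Of the other 54, 23 stayed within their counting interval, or within 1.5 times for counts, both values by the mean among them. Without positions before a genomic A, the median displacement was 1 nt in both alleles. Then 4 of 27 positions (2, 66, 87 and 113 nt) were higher in both, while 75 nt, which precedes an A, was left out. The shares in common were then 68.2% (Col-0 and rrp6L1-1), 76.7% (Col-0 and rrp6L1-2) and 69.1% (the alleles). Where ends were left out, the limit for long ends was set anew at 90% of the Col-0 ends kept. Without positions before a genomic A that limit lay beyond 63 nt. The long-end difference past it was -0.79 points in rrp6L1-1 and -0.61 in rrp6L1-2, which is not the excess past 63 nt. With each library's tallest peak left out, the rrp6L1-2 displacement was 0 nt and the long-end excesses were 2.74 and 3.03 points. The shares in common were then 78.5%, 75.1% and 80.5%, and 2 of 24 positions (2 and 75 nt) were higher in both alleles. Without the first 10 nt, the rrp6L1-2 displacement was 0 nt, and the shares were 83.6% for Col-0 and rrp6L1-1 and 82.3% for the alleles. With the highest mapping score only, the rrp6L1-2 displacement was -8 nt and the shares with rrp6L1-2 were 77.8% (Col-0) and 82.1% (rrp6L1-1). Then 2 of 23 positions (2 and 75 nt) were higher in both alleles. For the settings that left out ends, the share of called positions over all loci was not computed. With each distinct position counted once, the rrp6L1-2 displacement was -10 nt. The rrp6L1-2 long-end excess was 1.40 points with a limit at 75% of Col-0 and 3.45 with ends at the limit included. In bins of 5 nt the shares in common were 85.2%, 80.2% and 89.97%. At 1.5 times, 3 of 21 positions were higher and 1 was lower in both alleles, where all loci gave 27.2% and 25.6%. With a minimum share of 0.5%, 4 of 35 were higher, where all loci gave 24.7%. The causes of these changes were not tested. The number of IGN29 reads, not the depth of the library, limits nrpe1-11, where 3 reads allow no profile.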
